A study of Mus musculus with 18 samples.

Results

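The genes described here are those of DNA replication, cell division and its brakes, taken from a list of 45 mouse genes and measured in sorted skin and oral cells. A gene was included where the array has a probe set annotated to its symbol alone, and of several such probe sets the brightest on average over 18 arrays stood for the gene. This gave 44 of the 45 genes, out of 18193 genes measured in all; Ccnb1, a mitotic cyclin, has no such probe set. By role they were 14 S phase genes, 4 G1 cyclins, 21 of 22 genes of mitosis and 5 inhibitors of cyclin-dependent kinases (Cdks).

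Expression was measured on Affymetrix whole-genome mouse arrays in 6 groups of 3 samples, numbered as in their titles. All mice carried R26mTmG, a reporter whose red fluorescence (RFP) is switched to green (GFP) in cells that have had Cre, and in their descendants. EPF cells were green and not red, and ENF cells red and not green, both from dorsal dermis of En1Cre; R26mTmG mice labelled P56, although the protocol gives 30 days for back skin. Dorsal and Ventral cells were green and not red, from dorsal and ventral dermis of the same line at P30. Cranial and Oral cells were green and not red, from the cranial dermis and the oral mucosa of Wnt1Cre; R26mTmG mice at P30. No mouse was treated, and every sample was gated as negative for DAPI, EpCAM, CD45, CD31, Tie2 and a marker the labels write as Tie119. The colour reports past and not present expression of the Cre driver, En1 or Wnt1, and the sources used here do not say whether the 3 samples of a group came from separate mice, so p-values measure the spread between these samples. The Cre line and the body site cannot be told apart where the lines are compared, nor can the labelled age and the set of arrays where EPF or ENF is set beside the 4 site groups.

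A cell enters the division cycle when cyclin D with Cdk4 or Cdk6, and then cyclin E with Cdk2, inactivate the Rb family of proteins and release E2F factors. E2F factors switch on the genes of S phase, among them the Mcm helicase, its loaders and the enzymes that make deoxynucleotides. Later in the cycle, the B-Myb and FoxM1 complexes switch on the genes of mitosis, which the DREAM complex holds off in resting cells. Cdk inhibitors of the Cip/Kip family (Cdkn1a, Cdkn1b, Cdkn1c) and the Ink4 family (Cdkn2a, Cdkn2b) oppose the kinases. Most fibroblasts of adult skin rest, so the messages of S phase and mitosis are taken in this tissue as a sign of cycling cells.

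The promoters of the genes were searched for the letters of elements through which these programmes are known to act. A match is to the letters alone, at any position, and 6 promoters are given to set mitotic, S phase and inhibitor genes side by side. Each is the 250 bases before the start of the gene, 5′ to 3′ on the gene's strand, from RefSeq on GRCm38.p6. Capitals mark matches on either strand to CCAAT (the CCAAT box, bound by NF-Y), TTTGAA (a cell cycle homology region, CHR, bound by DREAM) and, for E2F, TTCCCGC or the variant TTCGCGC or the variant TTGCCGC or the variant TTGGCGC. The 3 mitotic genes Cdk1, Ccnb2 and Cdc20 each hold a CHR and CCAAT boxes, Cdk1 with 2 E2F matches besides, Mcm5 and Rrm2 hold E2F matches and no CHR, and Cdkn1b holds CCAAT boxes alone. Of the 3 E2F matches of Mcm5, 2 overlap.
Cdk1, chr10:69352913-69353162, minus strand: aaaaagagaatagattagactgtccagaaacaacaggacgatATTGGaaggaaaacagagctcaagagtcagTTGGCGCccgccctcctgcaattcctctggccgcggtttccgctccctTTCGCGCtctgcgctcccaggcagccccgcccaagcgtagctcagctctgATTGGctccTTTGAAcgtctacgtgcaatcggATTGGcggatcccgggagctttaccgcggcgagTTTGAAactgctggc
Ccnb2, chr9:70421555-70421804, minus strand: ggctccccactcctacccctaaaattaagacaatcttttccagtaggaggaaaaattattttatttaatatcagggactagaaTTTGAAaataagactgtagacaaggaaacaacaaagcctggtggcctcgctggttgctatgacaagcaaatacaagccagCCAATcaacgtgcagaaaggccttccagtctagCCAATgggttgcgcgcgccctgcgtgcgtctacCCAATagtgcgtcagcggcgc
Cdc20, chr4:118437344-118437593, minus strand: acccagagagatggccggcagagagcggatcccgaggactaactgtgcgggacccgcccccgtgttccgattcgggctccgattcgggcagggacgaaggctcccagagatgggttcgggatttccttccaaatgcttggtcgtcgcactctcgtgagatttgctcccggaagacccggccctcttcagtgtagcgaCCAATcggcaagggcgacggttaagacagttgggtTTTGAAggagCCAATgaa
Mcm5, chr8:75109259-75109508, plus strand: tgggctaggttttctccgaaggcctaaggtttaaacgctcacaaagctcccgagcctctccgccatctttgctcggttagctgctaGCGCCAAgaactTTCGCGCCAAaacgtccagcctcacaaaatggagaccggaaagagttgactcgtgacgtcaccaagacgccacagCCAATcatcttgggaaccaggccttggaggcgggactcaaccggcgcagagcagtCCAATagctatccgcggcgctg
Rrm2, chr12:24708004-24708253, plus strand: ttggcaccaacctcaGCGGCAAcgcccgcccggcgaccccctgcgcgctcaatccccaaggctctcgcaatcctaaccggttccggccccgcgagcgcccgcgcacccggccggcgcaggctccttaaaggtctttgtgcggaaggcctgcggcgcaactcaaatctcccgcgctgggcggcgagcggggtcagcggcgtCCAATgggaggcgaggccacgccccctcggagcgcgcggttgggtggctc
Cdkn1b, chr6:134920151-134920400, plus strand: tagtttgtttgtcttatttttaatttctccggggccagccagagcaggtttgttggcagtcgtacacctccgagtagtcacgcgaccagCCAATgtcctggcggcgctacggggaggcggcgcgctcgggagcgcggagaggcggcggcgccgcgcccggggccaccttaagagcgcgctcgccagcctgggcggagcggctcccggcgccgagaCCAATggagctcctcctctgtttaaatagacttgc

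Of the 44 genes, 34 had a promoter entry in RefSeq, and the first entry of each was searched. A CCAAT box stood in 15 of 17 mitotic promoters (88.2%), 8 of 12 S phase promoters (66.7%) and 35.7% of all 14452 promoters of measured genes. The CHR was in 6 mitotic promoters (35.3%), those of Mki67, Top2a, Ccnb2, Cdk1, Kif11 and Cdc20, against 11.9% of all, and each of the 6 also held a CCAAT box, a pair that 4.38% of all promoters hold. An E2F match was in 6 S phase promoters (50%), 2 mitotic promoters (11.8%) and 11.6% of all. In the larger lists of other genes of the same processes the shares ran the same way: 33.9% of 56 mitotic promoters held a CHR, and 37.1% of 35 replication promoters an E2F match. No promoter of the 34 held the TATA box letters TATAAA, which 9.02% of all promoters hold. Matches are descriptions of the sequence and do not show binding.

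All values below are log2 expression after robust multichip averaging, 1 unit being a doubling. The lower quartile of the arrays ran from 3.93 to 4.10, and a group whose mean did not exceed 4.10 is called near background; a difference from such a mean is a lower bound. The probe set used for Tyms, the thymidylate synthase, was near background in all 6 groups (3.49 to 3.91); another of its probe sets reached 4.21 in Dorsal and 4.19 in Ventral and differed by -1.16 between EPF and Dorsal. Fibroblast messages were high on every array, with Pdgfra from 10.71 to 13.39 and Col1a1 from 12.91 to 14.05, while Ptprc (CD45, 3.68 to 4.27) and Pecam1 (CD31, 3.69 to 4.25) lay close to the lower quartiles of the arrays. The mean of 12 fibroblast markers was 13.44 to 13.50 on EPF arrays, 13.13 to 13.20 on ENF arrays and 11.59 to 12.77 on site arrays. Epcam, whose protein was gated out, gave 7.47 to 9.25, and Sox10, of melanocytes and Schwann cells, 5.84 to 7.01, with no group apart. The mean of 17 keratinocyte markers was 4.56 to 5.0 on the site arrays but 6.83 to 9.18 on ENF arrays and 4.92 to 7.38 on EPF arrays. Across genes, arrays of a group correlated at 0.946 (Dorsal 1 and Dorsal 3) to 0.998 (Cranial 1 and Cranial 2), and no pair held the same values throughout.

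By group mean the 6 groups fell into 3 levels of the mitotic programme, although single arrays overlapped between neighbouring levels. EPF cells were lowest, with the lowest group mean in all 21 mitosis genes and in 13 of 14 S phase genes (Tyms was the exception), ENF cells were intermediate and uneven, and the 4 site groups were high. Averaged over the 21 mitosis genes, the EPF arrays stood at 4.63 to 5.28, the ENF arrays at 5.26 to 7.44, and the site arrays at 8.76 to 9.44 apart from Dorsal 3 at 6.92. In 20 of the 21 genes every site array lay above every EPF array. The exception was Nusap1, a spindle protein, with 5.37 on Dorsal 3 against 5.71 on EPF 3. The share of all genes that separate in this way was not counted. The S phase mean was 6.82 to 7.09 in EPF, 7.18 to 9.18 in ENF and 9.14 to 10.12 on site arrays other than Dorsal 3, at 7.81. The Cdk inhibitors did not share this order: their mean was 8.28 to 8.53 in EPF, within the 7.75 to 8.91 of the site arrays. In such bulk samples, fewer cycling cells and less message per cycling cell cannot be told apart.

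**Figure D1:**
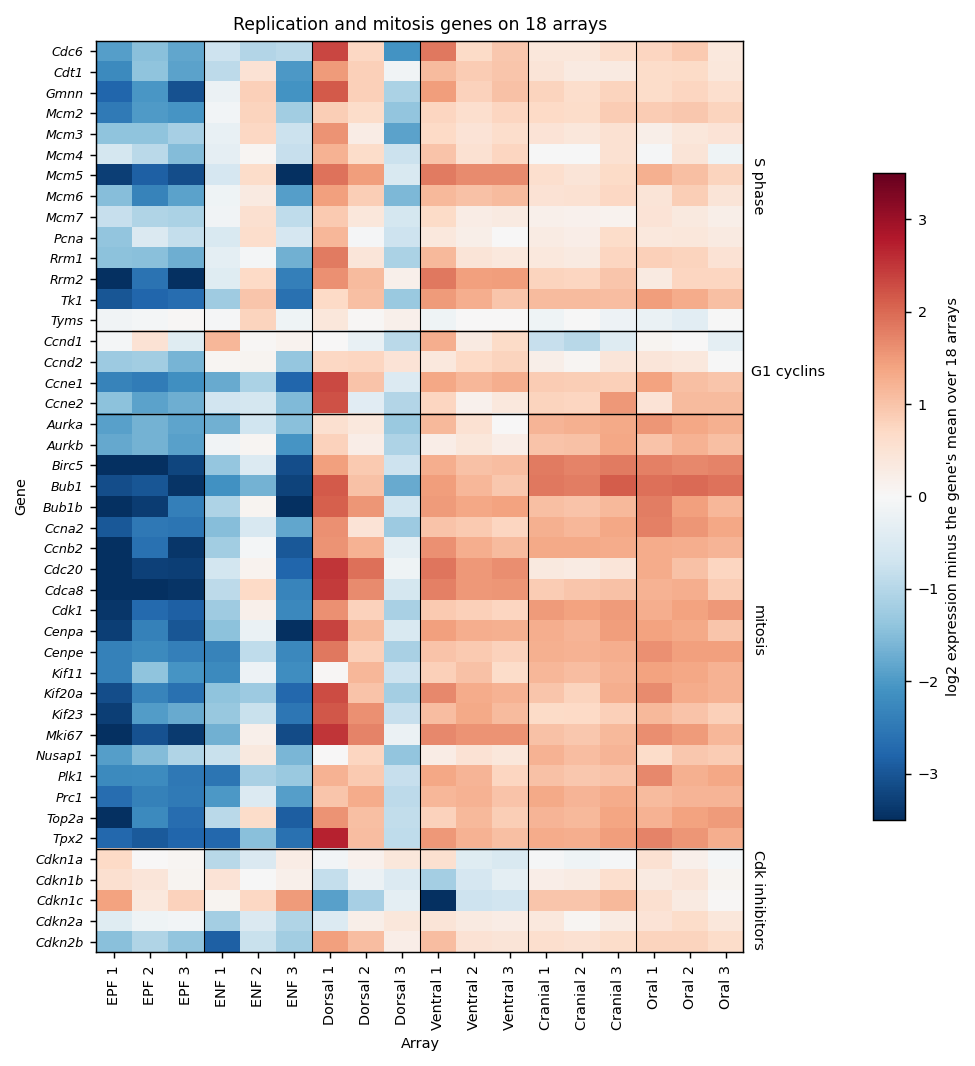
Log2 expression of each of the 44 genes on each array minus the gene's mean over 18 arrays, with genes in rows by role and arrays in columns by group; colours reach their limit at 3.5 log2 units. EPF columns are low throughout the S phase and mitosis rows, and Dorsal 3 and ENF 3 are lower than the other arrays of their groups.

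**Figure D2:**
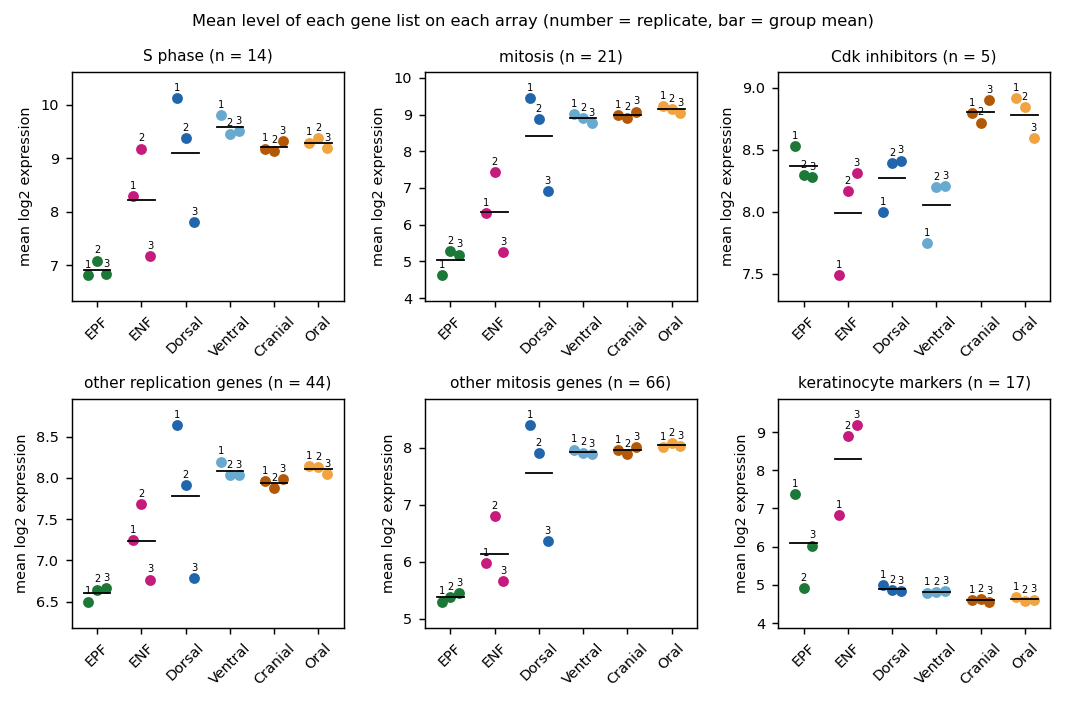
Mean log2 expression of 3 sets of members, of the 2 lists of other cycle genes and of keratinocyte markers on each array (points, numbered by replicate) with the group mean (bar); each panel has its own axis. The mitosis panel shows EPF at 4.63 to 5.28, and the keratinocyte panel shows ENF and EPF arrays at different heights from the site arrays.

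Of the 8 comparisons fitted, EPF against Dorsal had the most calls among the 44 genes. EPF was not fitted against Ventral, Cranial or Oral. EPF and Dorsal cells share the line, the colour and the tissue and differ in labelled age and in the set of arrays. Of the 44 genes, 28 were lower and 2 higher in EPF by limma with Benjamini-Hochberg adjustment over all genes, against a background of 5.94% of genes lower and 10.9% higher. All 21 mitosis genes were on average lower in EPF and 19 were called, with a median difference of -3.43 where the median of all genes was 0.01. All 14 S phase genes were on average lower and 6 were called (median -2.10). Of the G1 cyclins, 2 of 4 were called lower.

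Mki67, the antigen Ki-67 that coats chromosomes in dividing cells, read 4.25, 6.41 and 6.09 on EPF 1 to 3 and 11.94, 11.18 and 9.25 on Dorsal 1 to 3. Every Dorsal array lay above every EPF array, and the mean was 36.9 times higher in Dorsal (log2 difference -5.21 ± 0.82 SE, limma adjusted p = 0.00776). Cdca8, the borealin subunit of the chromosomal passenger complex, was at 5.29, 5.56 and 6.29 in EPF and 12.19, 11.39 and 9.12 in Dorsal (-5.18 ± 0.76, limma adjusted p = 0.00583). Cdc20, which activates the anaphase-promoting complex, was at 6.73, 7.06 and 7.01 against 12.83, 12.23 and 10.16 (-4.81 ± 0.64, limma adjusted p = 0.00421). The EPF arrays were close to each other for Cdc20, while Dorsal 3 was the lowest Dorsal array for all 3 genes.

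Bub1b, the checkpoint kinase BubR1, read 4.07, 4.72 and 5.64 in EPF and 10.14, 9.57 and 7.34 in Dorsal, a difference of -4.20 ± 0.76 (limma adjusted p = 0.013). Ccnb2, a B-type cyclin, read 4.10, 5.42 and 4.61 against 9.60, 9.25 and 7.67 (-4.13 ± 0.56, limma adjusted p = 0.00445). Its partner kinase Cdk1 was 10.8 times lower in EPF (limma adjusted p = 0.0163). Top2a, the topoisomerase that untangles sister chromatids, read 4.51, 6.57 and 6.13 against 10.37, 9.85 and 7.94 (-3.66 ± 0.76, limma adjusted p = 0.0208). Of the kinases of the mitotic spindle, Plk1 fell by 2.76 and Aurkb by 1.77 on the log2 scale, while Aurka (-1.68, limma adjusted p = 0.0587) and Nusap1 (-1.29, limma adjusted p = 0.166) were not called. The motor and kinetochore genes Cenpa, Cenpe, Kif11, Kif20a and Kif23, with Birc5, Bub1, Ccna2, Prc1 and Tpx2, were all called lower, by 2.11 (Kif11) to 4.09 (Birc5). The EPF means of Birc5, Bub1 and Kif20a were near background, so their differences are lower bounds.

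In S phase the largest falls were in Rrm2, the regulated subunit of ribonucleotide reductase, and Mcm5, a subunit of the replicative helicase. Rrm2 read 6.52, 7.52 and 6.45 in EPF and 11.71, 11.20 and 10.29 in Dorsal, 18.8 times higher in Dorsal (-4.24 ± 0.44, limma adjusted p = 0.00167). Mcm5 read 5.88, 6.32 and 6.07 against 11.07, 10.63 and 8.64 (-4.02 ± 0.60, limma adjusted p = 0.00634). Gmnn, which blocks relicensing of origins, Tk1, the thymidine kinase, Cdt1, a helicase loader, and Mcm2 were also called lower, by 2.21 to 3.24. The other helicase subunits Mcm3, Mcm4, Mcm6 and Mcm7, with Cdc6, Pcna, Rrm1 and Tyms, were not called, with differences from -2.14 to -0.25. Pcna, the sliding clamp that also serves DNA repair, read 9.18, 10.07 and 9.75 in EPF and 11.75, 10.54 and 9.86 in Dorsal, and the groups overlapped (-1.05 ± 0.49, limma adjusted p = 0.212).

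Of the G1 cyclins, Ccnd2 read 10.14, 10.20 and 9.81 in EPF and 12.14, 12.18 and 11.90 in Dorsal, a difference of -2.02 ± 0.17 with little spread in either group (limma adjusted p = 0.000832). Ccne1 read 6.51, 6.41 and 6.70 against 11.17, 9.85 and 8.37 (-3.26 ± 0.64, limma adjusted p = 0.0172). Ccnd1 went the other way without passing the test, at 8.77, 9.33 and 8.41 in EPF and 8.85, 8.58 and 7.89 in Dorsal (0.40 ± 0.33, limma adjusted p = 0.497). Its other 2 probe sets gave lower values in EPF. Ccne2 was near background in EPF and was not called (-1.94, limma adjusted p = 0.158).

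**Figure D3:**
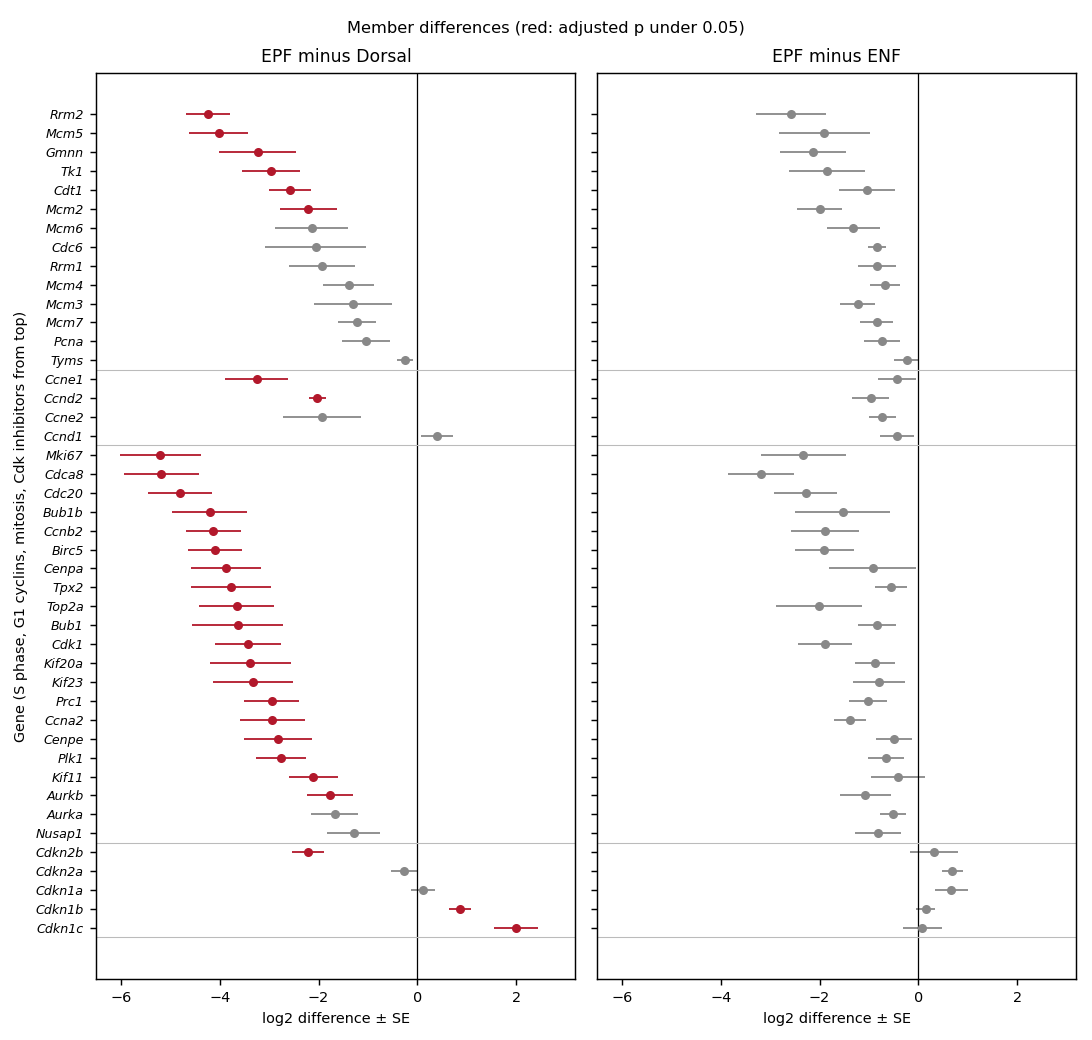
Log2 difference ± SE of each gene between EPF and Dorsal (left) and between EPF and ENF (right), 3 arrays a group, from limma; red marks an adjusted p under 0.05. On the left the mitosis genes reach -5.21, and on the right every S phase, G1 cyclin and mitosis gene lies below 0 with none called.

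The fall was carried by more probe sets than those chosen. Of the 30 called genes, 20 had other probe sets, 37 in all, of which 33 moved in the same direction and 21 by at least 1 log2 unit. The count of calls depended on single arrays: it was 10, 12 and 11 without EPF 1, EPF 2 and EPF 3 (9.49%, 8.85% and 8.1% of all genes called), 15 without Dorsal 2 (10.7%), 29 without Dorsal 1 (22.3%), and 37 without Dorsal 3, when all 21 mitosis genes and 12 of 14 S phase genes were lower (background without Dorsal 3: 8.18% lower and 10.6% higher). Dorsal 3 was the lowest Dorsal array in 39 of the 44 genes, so leaving it out widens most of the falls by construction. Markers of other cells moved with the comparison. The mural cell list was at 8.71 to 8.84 in EPF and 6.90 to 7.17 in Dorsal. Rgs5 of pericytes was 6.31 higher in EPF and Trp63 of keratinocytes 1.05 higher, both called by limma. The mural list was divided: of its 11 markers, 7 were on average higher in EPF and 4 lower, with 6 called higher and 1 lower. Tek, the gene of Tie2 and named here after its values were seen, read 9.45 to 10.84 in EPF and 3.96 to 3.98 in Dorsal. The 14 endothelial markers as a whole had a median difference of 0.07, with 3 called higher and 1 lower, and Pecam1 differed by -0.03. Of the 12 fibroblast markers, 5 were called higher in EPF and 0 lower (median 0.71), Pdgfra among them (1.30, limma adjusted p = 0.0134). The part of these differences in the result was not tested.

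Of the 5 Cdk inhibitors, 2 were called higher and 1 lower in EPF against Dorsal. Cdkn1c, the p57 protein of the Cip/Kip family, read 11.56, 10.53 and 10.97 in EPF and 8.25, 9.0 and 9.81 in Dorsal and rose by 2.00 ± 0.44 in EPF (limma adjusted p = 0.0249). Cdkn1b, the p27 protein, read 8.0, 7.85 and 7.54 against 6.61, 7.23 and 6.96 and rose by 0.87 ± 0.22 (limma adjusted p = 0.0392); its other probe set gave the opposite sign (-0.43), with means of 3.83 in EPF and 4.26 in Dorsal. The Cdkn1c call held in 10 of 15 other settings and the Cdkn1b call in 6 of 15. Cdkn2b, the p15 protein, fell with the cycle genes, at 7.27, 7.67 and 7.34 in EPF against 10.15, 9.82 and 8.95 in Dorsal (-2.21 ± 0.32, limma adjusted p = 0.00561). In all 12 site arrays Cdkn2b lay above all EPF and ENF arrays, at 8.95 or more against 7.95 or less.

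Cdkn1a, the p21 protein and a target of p53, was high in every group. It read 11.28, 10.60 and 10.67 in EPF, 9.62, 10.10 and 10.85 in ENF, 10.48, 10.74 and 10.98 in Dorsal, 11.16, 10.18 and 10.06 in Ventral, 10.55, 10.43 and 10.55 in Cranial and 11.12, 10.77 and 10.52 in Oral. All groups overlapped with EPF except Cranial, and EPF against Dorsal gave 0.12 ± 0.24 (limma adjusted p = 0.806), while a second probe set gave 1.21. Cdkn2a, which encodes p16 and p19Arf, read 4.54, 4.83 and 4.88 in EPF, 3.79, 4.47 and 3.94 in ENF, and 4.51 to 5.63 on the site arrays.

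**Figure D4:**
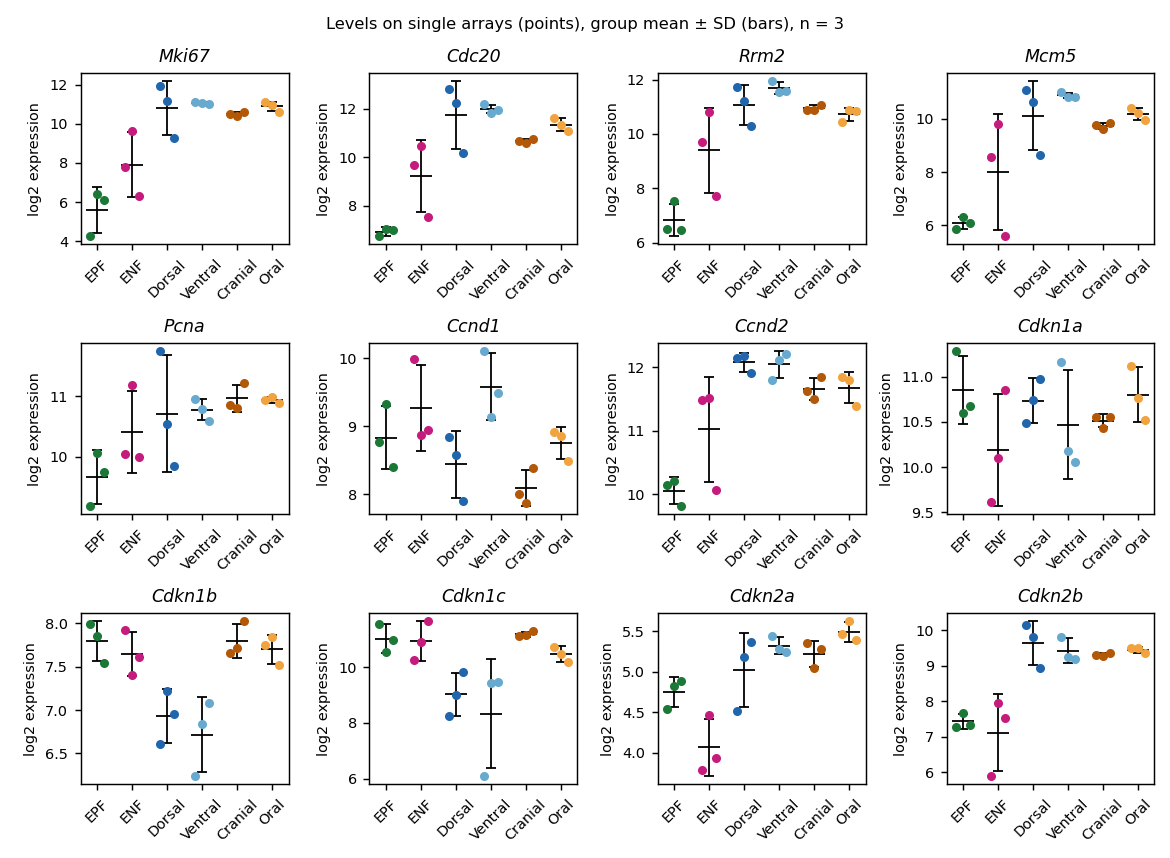
Log2 expression on single arrays (points, replicates 1 to 3 from left) with the group mean ± SD (n = 3) for 12 genes; axes differ between panels and do not start at 0. Mki67, Cdc20, Rrm2 and Mcm5 are lowest in EPF, Dorsal spreads widely in these 4 genes, and Cdkn1c is lower in Dorsal and Ventral than in the other groups.

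EPF and ENF separate green from red cells of the same dorsal dermis. No gene of the 44 passed the test by limma, where 0.275% of all genes were higher and 0.033% lower in EPF. The differences nevertheless lay on one side: all 39 S phase, G1 cyclin and mitosis genes were lower in EPF on average, and all 5 Cdk inhibitors higher. At an unadjusted p under 0.05, 18 genes were lower and 1 higher, against 4.84% lower and 5.97% higher among all genes. The median difference was -1.14 in S phase, -1.02 in mitosis and 0.31 in the inhibitors, and 0.0002 over all genes.

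Cdca8 read 5.29, 5.56 and 6.29 in EPF and 8.83, 10.42 and 7.44 in ENF (-3.18 ± 0.67, limma adjusted p = 0.138). Mcm2 read 6.81, 7.28 and 7.21 against 9.18, 10.06 and 8.06 (-2.0 ± 0.45, limma adjusted p = 0.163). Cdc6, a helicase loader, read 4.03, 4.51 and 4.16 against 5.23, 4.95 and 5.02 (-0.84 ± 0.18, limma adjusted p = 0.148). In these 3 genes, chosen by the smallest p, each ENF array lay above each EPF array. The share of all genes that separate in this way was not counted. Mki67 read 7.77, 9.64 and 6.33 in ENF, so that ENF 3 fell within the range of EPF, whose highest array was at 6.41. Rrm2 did not overlap, at 9.69, 10.81 and 7.72 in ENF (-2.57 ± 0.71, limma adjusted p = 0.245).

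The inhibitors with the smallest p were Cdkn2a (0.68 ± 0.21, limma adjusted p = 0.303), Cdkn1a (0.66 ± 0.33, limma adjusted p = 0.53) and Cdkn1b (0.15 ± 0.20, limma adjusted p = 0.84). The ENF mean of Cdkn2a was near background. Cdkn1b read 7.92, 7.41 and 7.61 and Cdkn1c 10.25, 10.90 and 11.65 in ENF, both overlapping with EPF. Pcna at 10.05, 11.18 and 10.00, Ccnd1 at 9.99, 8.87 and 8.94, Ccne1 at 7.08, 7.76 and 6.08, Ccnd2 at 11.48, 11.51 and 10.07 and Top2a at 7.87, 9.45 and 5.93 in ENF also overlapped with EPF. Cdkn2b at 5.88, 7.95 and 7.51 did too.

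The spread lay between the ENF arrays. ENF 2 was the highest of the 3 in 39 of the 44 genes, including all 21 of mitosis, and ENF 3 the lowest in 31. The median gap between ENF 2 and ENF 3 was 2.00 in mitosis genes and 1.80 in S phase genes. Leaving out ENF 3 therefore moves EPF further below ENF in most of these genes by construction. Without ENF 3, 11 genes were lower in EPF and none higher by limma (background 0.324% lower and 0.39% higher): Cdc20 (-3.12), Cdca8 (-3.91), Rrm2 (-3.42), Mcm5 (-3.10), Gmnn, Birc5, Mcm2, Mcm6, Aurkb, Ccnd2 and Rrm1. Without any other single array the count was 0. In 1 fit over all 18 arrays it was 3, with Cdca8, Mcm2 and Rrm2 lower, where 1.47% of all genes were higher and 1.06% lower.

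Markers of other cells differed between these arrays too. The keratinocyte list averaged 6.83, 8.89 and 9.18 on ENF 1 to 3 and 7.38, 4.92 and 6.03 on EPF 1 to 3. Krt5 read 9.64, 11.72 and 11.34 in ENF and 9.72, 6.14 and 7.43 in EPF, Krt14 read 5.80, 9.81 and 9.54 against 6.30, 4.48 and 5.29, and Trp63 fell by 4.13 in EPF (limma adjusted p = 0.00591). The 11 hair matrix markers, of a compartment that divides quickly, averaged 5.38, 6.01 and 4.80 in ENF and 4.87 to 4.98 in EPF. The hair matrix list was divided. Of its 11 markers, 4 were on average higher in EPF and 7 lower (median -0.16), with 0 called. The muscle lineage list averaged 5.90 to 6.69 in ENF and 4.95 to 5.12 in EPF, and its factor Myf5 fell by 4.97 (limma adjusted p = 0.00591), while Pax7 was not called (-1.74). ENF 3 was the highest ENF array in the keratinocyte and muscle lists and the lowest in the S phase and mitosis lists, whereas ENF 2 was the highest in the hair matrix, S phase and mitosis lists. The 11 mural cell markers averaged 8.71 to 8.84 in EPF and 7.07 to 7.41 in ENF; all 11 were on average higher in EPF (median 1.56), 4 of them called by limma, and Rgs5 was 3.07 higher without passing (limma adjusted p = 0.0637). The part of these cells in the difference between EPF and ENF was not tested.

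Dorsal 3 stood apart within its group in these genes. It was the lowest Dorsal array in 39 of the 44 genes and in all 21 of mitosis, with a median gap to Dorsal 1 of 2.70 in mitosis and 2.11 in S phase and to Dorsal 2 of 1.95 and 1.74. Cdc6 read 8.31, 6.70 and 3.88 and Bub1, a checkpoint kinase, 8.94, 7.84 and 5.03 on Dorsal 1 to 3. In contrast Cdkn1c was highest on Dorsal 3. Across all genes Dorsal 1 was the least like the others. It correlated at 0.967 with Dorsal 2 and 0.946 with Dorsal 3, which correlated at 0.975 with each other. The median range among 3 arrays in mitosis genes was 2.70 in Dorsal and 2.05 in ENF, against 0.72 in EPF, 0.31 in Oral, 0.24 in Ventral and 0.15 in Cranial; over all genes it was 0.535 in Dorsal and 0.198 in Cranial. The fibroblast markers averaged 12.77 on Dorsal 3 and 12.03 and 12.14 on the others, with keratinocyte markers at 4.84 to 5.0 on all 3. The part of the fibroblast markers in its lower cycle values was not tested.

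Each comparison with Dorsal therefore has a value with and without Dorsal 3. Ventral against Dorsal, sites of the same line, had no call among the 44 genes by limma, at a background of 0.0055% higher and 0.022% lower. At an unadjusted p under 0.05, 2 were higher (Ccnd1 and Tk1) and 0 lower, against 3.48% higher and 5.07% lower among all genes. All 21 mitosis genes were on average higher in Ventral (median 0.45), as were 13 of 14 S phase genes (median 0.55). Without Dorsal 3 the medians of both lists changed sign, to -0.36 and -0.22, with no call in either direction. Dorsal 3 was the lowest Dorsal array in nearly all of these genes, so leaving it out lowers their differences by construction. Without Dorsal 1 the count of calls was also 0.

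Ccnd1, cyclin D1, read 10.11, 9.14 and 9.50 on Ventral 1 to 3, above all Dorsal arrays (1.14 ± 0.29, limma adjusted p = 0.403). Tk1 read 9.22, 9.01 and 8.71 against 8.43, 8.78 and 6.43 (1.10 ± 0.47, limma adjusted p = 0.569), and Rrm2 read 11.95, 11.53 and 11.57 in Ventral (0.62 ± 0.29, limma adjusted p = 0.593). On the lower side the smallest p belonged to Tyms (-0.25, near background), Cdkn1a (-0.27 ± 0.26, limma adjusted p = 0.779) and Cdkn1b (-0.21 ± 0.22, limma adjusted p = 0.792). Mki67 in Ventral read 11.12, 11.04 and 11.03, Top2a 9.63, 9.95 and 9.68, Pcna 10.96, 10.79 and 10.60, Ccnd2 11.80, 12.12 and 12.21, and Ccne1 10.20, 10.03 and 10.12. These 5 genes varied less between Ventral arrays than between Dorsal arrays except Ccnd2. Cdkn1c varied most, at 6.09 on Ventral 1 and 9.44 and 9.48 on the others; Ventral 1 also had the lowest fibroblast mean, 11.59.

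**Figure D5:**
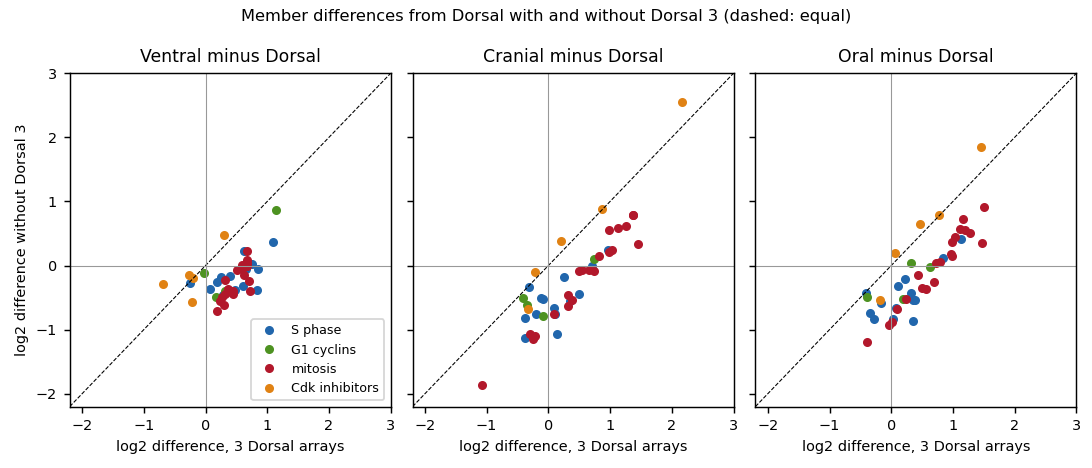
Log2 difference of each of the 44 genes from Dorsal with all 3 Dorsal arrays (x axis) and without Dorsal 3 (y axis) for Ventral, Cranial and Oral; the dashed line marks equal values. The S phase and mitosis genes mostly lie below the line, as leaving out their lowest Dorsal array makes them, and the Ventral mitosis median goes from 0.45 to -0.36.

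Oral and Cranial cells, both of the Wnt1 line, were the second pair from 1 line. No gene of the 44 was called by limma, at a background of 0.407% higher and 0.731% lower in Oral, and 1 (Ccnd1) passed an unadjusted p of 0.05, where 3.69% of all genes were higher and 4.59% lower. Ccnd1 read 8.92, 8.85 and 8.49 in Oral and 8.01, 7.87 and 8.39 in Cranial, without overlap (0.66 ± 0.29, limma adjusted p = 0.553). Cdc20 read 11.62, 11.34 and 11.07 against 10.65, 10.59 and 10.74 (0.68 ± 0.51, limma adjusted p = 0.903), and Cdkn2a read 5.47, 5.63 and 5.39 against 5.35, 5.05 and 5.28 (0.27 ± 0.19, limma adjusted p = 0.891). On the lower side were Cdkn1c, at 10.73, 10.48 and 10.19 against 11.12, 11.13 and 11.29 (-0.71 ± 0.75, limma adjusted p = 0.962), Nusap1, at 7.39, 7.70 and 7.64 against 7.97, 7.82 and 7.94 (-0.33 ± 0.39, limma adjusted p = 0.976), and Rrm2, at 10.44, 10.86 and 10.85 against 10.89, 10.87 and 11.08 (-0.23 ± 0.29, limma adjusted p = 0.98). The groups did not overlap in any of these 6 genes, which were chosen by the smallest p. The share of all genes without overlap was not counted. The SE came from all 12 site arrays, Dorsal included. Fitted on the 6 Oral and Cranial arrays alone, 5 genes were called: Ccnd1, Cdc20, Mcm5 and Plk1 higher in Oral and Cdkn1c lower, where 3.82% of all genes were higher and 6.05% lower.

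The other levels lay close together. Mki67 read 11.09, 10.96 and 10.61 in Oral and 10.49, 10.40 and 10.58 in Cranial, Top2a 10.01, 10.20 and 10.31 against 9.99, 9.95 and 10.19, and Pcna 10.94, 10.98 and 10.88 against 10.86, 10.81 and 11.21. Ccnd2 read 11.84, 11.79 and 11.39 against 11.63, 11.50 and 11.84, Ccne1 10.26, 9.90 and 9.83 against 9.74, 9.71 and 9.69, and Cdkn2b 9.50, 9.49 and 9.36 against 9.31, 9.27 and 9.36. The median difference was 0.17 in mitosis, 0.07 in S phase and 0.04 over all genes.

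Against Dorsal, Cranial had 3 genes higher and 0 lower by limma, a background of 11.2% higher and 7.45% lower: Aurka (1.38 ± 0.42, adjusted p = 0.0434) and Nusap1 (1.37 ± 0.39, adjusted p = 0.0351), of the spindle, and Cdkn1b (0.87 ± 0.22, adjusted p = 0.0218). Oral had 3 higher and 1 lower, where 10.5% of all genes were higher and 6.3% lower: Aurka (1.5 ± 0.42, limma adjusted p = 0.0322), Kif11 (1.16 ± 0.35, limma adjusted p = 0.043), Cdkn1b (0.77 ± 0.22, limma adjusted p = 0.0368) and, lower, Tyms near background. These shares of the 44 genes lie below the background. Aurka read 7.28, 7.10 and 5.43 in Dorsal, 7.92, 7.97 and 8.06 in Cranial and 8.27, 8.08 and 7.97 in Oral, so both groups lay above all Dorsal arrays. Nusap1 read 6.75, 7.5 and 5.37 in Dorsal, and Kif11, a spindle motor, read 6.16, 7.27 and 5.39 in Dorsal and 7.52, 7.47 and 7.32 in Oral. The second, dimmer probe sets gave -0.03 in Cranial and 0.02 in Oral for Aurka, and 0.01 in Cranial for Nusap1. All comparisons with Dorsal, EPF and Ventral included, share the Dorsal arrays, and both EPF comparisons share the EPF arrays.

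Single arrays decided these counts. Without Dorsal 3, Cranial had 5 genes higher and 8 lower (background 11% and 8.26%), and Oral 3 higher and 8 lower (10.4% and 7.21%). The lower ones then included Cdc20 (-1.87 in Cranial, -1.19 in Oral), Cdca8 (-1.10, -0.93), Kif23 (-1.15, -0.89), Mki67 (-1.07, -0.67), Mcm5 (-1.12, -0.66) and Cdt1 (-0.81, -0.59), all called in both comparisons. Birc5, the survivin protein of the passenger complex, was higher in both (0.62, 0.56). Other probe sets of the lower genes were compared only with all 3 Dorsal arrays. In Cranial and Oral the set used for Cdca8 then gave -0.21 and -0.04, and its others 0.77 and 1.07, and -0.05 and 0.07. For Mcm5 the set used gave -0.39 and 0.08, and its others 0.24 and 1.07, and -0.41 and 0.06. For Cdc20 the others gave -0.35 and 0.31, and -0.94 and -0.47. Without Dorsal 1 instead, 14 were higher in Cranial and 15 in Oral, with none lower. Of all genes, 20.2% were then higher and 13.6% lower in Cranial, and 20.5% and 10.5% in Oral. Dorsal 1 was the highest Dorsal array in 35 of the 44 genes and Dorsal 3 the lowest in 39. Leaving out Dorsal 1 thus raises most of these differences by construction, and leaving out Dorsal 3 lowers them. Leaving out any Cranial array left 0 calls in Cranial, and leaving out Oral 1, Oral 2 or Oral 3 left 0, 0 or 1 in Oral.

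Against Ventral, the other site of the En1 line, Cranial had Cdkn1c (2.84 ± 0.75, limma adjusted p = 0.0245) and Cdkn1b (1.08 ± 0.22, limma adjusted p = 0.00794) higher and Ccnd1 lower (-1.49 ± 0.29, limma adjusted p = 0.00556), against 11.7% of all genes higher and 6.2% lower. Cdkn1b read 6.24, 6.84 and 7.08 in Ventral, 7.66, 7.71 and 8.03 in Cranial and 7.75, 7.84 and 7.52 in Oral. All Cranial and Oral arrays lay above all Ventral and Dorsal arrays for Cdkn1b. Oral had Cdkn1b higher (0.98 ± 0.22, limma adjusted p = 0.0135) and Rrm2 lower (-0.97 ± 0.29, limma adjusted p = 0.049), with 10.3% and 4.31% of all genes called. The second, dimmer probe set of Cdkn1b went the other way in all 4 comparisons between the lines, with group means of 4.26 in Dorsal and 4.21 in Ventral against 3.44 in Cranial and 3.65 in Oral, and with the mean of both none of the 4 differences between the lines was called. The Cdkn1c call was lost without any 1 of the 3 Cranial arrays (limma adjusted p = 0.0641 to 0.0825), and the Rrm2 call without any 1 of the 6 arrays (limma adjusted p = 0.0904 to 0.159).

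The SE of these comparisons again rests on all 12 arrays. Fitted on the 6 arrays concerned, 21 of the 44 genes were called between Cranial and Ventral (background 21.4% higher and 15.3% lower) and 19 between Oral and Ventral (18.8% and 8.27%). The mitosis genes then split. Birc5, Bub1, Nusap1, Aurkb, Cdk1, Ccna2 and Cenpe were higher in Cranial, by 0.33 to 0.82, and Cdc20 (-1.32), Cdca8 (-0.66), Mki67 (-0.57), Kif23 and Bub1b lower. The same 7 were higher in Oral, with Aurka, Kif11 and Top2a, and Cdc20 (-0.64) and Cdca8 (-0.49) were lower. The 5 S phase genes called in each, Mcm4, Mcm5, Mcm6, Cdt1 and Rrm2, were lower in Cranial and Oral than in Ventral. Other probe sets of these genes divided: of 26 for the genes called in Cranial, 19 had the same sign and 7 the opposite, and of 26 in Oral, 14 and 12. Cenpe's second probe set, as bright as the first, gave -1.30 in Cranial and -1.55 in Oral, the second of Mcm4 gave 0.54 and 0.67, and the second of Mcm6 gave 0.43 and 0.72. For Mcm5 a second gave -0.53 in Cranial and 0.29 in Oral, while both others of Rrm2 were lower in each. Both comparisons share the Ventral arrays, and median centring of the arrays moves the median difference of all genes between the lines, from -0.06 to -0.27 for Cranial and Dorsal and from -0.02 to -0.20 for Oral and Ventral, so small differences depend on that scale.

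Wider lists of the same processes, chosen for what the genes are known to do, were read alongside. The background between EPF and Dorsal was 5.94% of all genes lower and 10.9% higher in EPF. Between EPF and Dorsal, 36 of 66 other mitosis genes were lower and 0 higher by limma (median -2.17), led by Cdca5, sororin of the cohesin complex (-5.19), and Cks2, a Cdk subunit (-4.56). Of 44 other replication genes, 9 were lower and 0 higher (median -1.03), among them Dbf4, the activator of the Cdc7 kinase (-3.87), and Uhrf1, which guides maintenance methylation (-3.86). Of 26 genes of the Rb and DREAM circuit, 2 were higher, Myc (3.86), a growth factor-induced transcription factor, and Ccnd3 (1.10), and 5 lower, led by Skp2 (-2.98), which targets p27 for destruction, and Cdkn3 (-2.78). Of 17 p53 targets, 2 were higher, Btg2 (3.15), an antiproliferative gene, and Sesn1 (1.80), and 4 lower, led by Plk2 (-3.84) and Aen (-2.18). Myc read 10.07, 10.64 and 10.60 in EPF and 7.32, 6.53 and 5.89 in Dorsal.

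Between EPF and ENF no gene of these 4 lists was called. At an unadjusted p under 0.05 the lower ones were 14 of 44 replication and 26 of 66 mitosis genes, against 4.84% of all genes. Between Oral and Cranial the calls were 2 p53 targets, Perp (-1.43), a desmosome protein also of keratinocytes, and Trp53inp1 (-1.03), where 0.731% of all genes were lower. Between Ventral and Dorsal there were none. Between the lines the Rb and DREAM list had 8 higher and 2 lower of 26 in Cranial against Dorsal, 6 and 2 in Oral against Dorsal, 7 and 0 in Cranial against Ventral, and 5 and 1 in Oral against Ventral. Of the 17 p53 targets, 3 were higher and 2 lower, 2 and 1, 4 and 3, and 2 and 1 in the same comparisons. Among all genes, 11.2% were higher and 7.45% lower, 10.5% and 6.3%, 11.7% and 6.2%, and 10.3% and 4.31%. In the Rb and DREAM list Myc led each time, by 2.78, 2.40, 2.82 and 2.45, and Rb1 was second against Ventral, at 1.51 in Cranial and 0.96 in Oral. Cdk6 was lower in 3 of the 4, by up to 1.46, and Lin52 slightly lower in both comparisons with Dorsal.

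In the other lists Cdc25b, a phosphatase that activates Cdk1, was higher in all 4 comparisons between the lines (1.10 to 1.62), and Smc4, a condensin subunit (-1.17 to -1.42), and Cdc45, of the replicative helicase (-0.45 to -0.89), were lower in all 4. Chaf1b, a histone chaperone, was higher against Dorsal in both (1.26 in Cranial, 1.21 in Oral). Of the p53 targets, Btg2 was higher in all 4 (1.12 to 2.04), as was Perp (0.76 to 2.41), while Mdm2, which restrains p53, was lower in all 4 (-1.04 to -1.5).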

How the data were processed

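Expression was read from the authors' deposited log2 values, which were made by robust multichip averaging (RMA) and quantile normalization in R, per the series' design text among the labels; no source used here gives the software version or says whether all 18 arrays were normalized together. That the scale is log2 was read from the range of the values. Of 45101 probe sets, 34945 were annotated to 1 gene symbol, 932 to several and 9160 to none, and 64 were controls; the annotation gave 18193 genes, each by the probe set that was brightest on average. Arrays were grouped by title. Differences were fitted with limma 3.58.1 in R 4.3.3 (lmFit and eBayes), and p-values were adjusted by Benjamini-Hochberg across the 18193 genes, with calls under 0.05: EPF against ENF and EPF against Dorsal on 6 arrays each, and the 6 comparisons of sites in 1 fit of 12 arrays. An SE is limma's moderated SE. The scripts were tested on simulated data. With 3 arrays a group, their number limits the precision. Genes with values in every array were 12 chosen by role; in each comparison up to 6 called genes a direction with the largest difference were named or, with none called, the 3 a direction with the smallest p, and of each wider list up to 2 called genes a direction. The genes and lists were chosen with earlier results of these data known. Alternatives were other normalizations, filters, probe set rules, array weights, fits and left-out arrays. Promoters came from RefSeq (GRCm38.p6).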

Additional observations from a re-analysis of the deposited data

How the results depend on the processing

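Between EPF and Dorsal 30 genes were called, where 16.8% of all genes were. Changes of normalization, filter, probe set or fit gave 25 (replicate block, 12.9% of all genes) to 39 (array weights, 36.6%). The fit of all 18 arrays gave 38 (31.2%). Leaving out 1 array gave 10 to 37, where 8.1% to 22.3% of all genes were called. Leaving out 1 array gave 0 to 11 calls between EPF and ENF, 0 to 0 between Oral and Cranial, 0 to 1 between Ventral and Dorsal (Kif11, without Dorsal 2), 0 to 14 between Cranial and Dorsal, 0 to 15 between Oral and Dorsal, 2 to 3 between Cranial and Ventral and 0 to 2 between Oral and Ventral. For the pairs within a line, in that order, 0.022% to 0.715%, 0.61% to 0.709% and 0.0165% to 0.885% of all genes were called. For the pairs between lines the shares were 9.04% to 33.8%, 9.73% to 30.9%, 9.02% to 12.9% and 7.81% to 12.5%. One fit of all 18 arrays gave 3 calls between EPF and ENF, 2 between Oral and Dorsal and 1 between Oral and Ventral. The shares of all genes called were 2.53%, 14.7% and 12.9%. Fits of only the 6 arrays concerned gave 5 between Oral and Cranial, 1 between Cranial and Dorsal, 0 between Oral and Dorsal, 21 between Cranial and Ventral and 19 between Oral and Ventral. The shares of all genes called were 9.87%, 6.83%, 5.85%, 36.7% and 27.1%. Array weights gave 2 between Oral and Cranial, 2 between Ventral and Dorsal, 22 between Cranial and Dorsal, 17 between Oral and Dorsal, 18 between Cranial and Ventral and 16 between Oral and Ventral, where 10.6%, 5.23%, 55.6%, 49.3%, 48.7% and 42.5% of all genes were called. Quantile normalization gave 1 for Cranial and Dorsal, 2 for Oral and Dorsal and 7 for Cranial and Ventral, where 19.3%, 18.6% and 19.1% of all genes were called. Median centring gave 5, 7 and 4 for Cranial and Dorsal, Cranial and Ventral, and Oral and Ventral, where 37%, 34.2% and 23% were called. Leaving out dim genes, or a trend with robust eBayes, gave 5 for Cranial and Dorsal, where 22.2% and 18.1% of the genes tested were called. The mean of all probe sets gave 2 for Oral and Dorsal and 0 for Oral and Ventral, where 15.1% and 12.6% of all genes were called. The replicate numbers only name the arrays: same-numbered EPF and ENF arrays deviated with correlations of -0.082, -0.111 and -0.079. With the replicate number as a block, Oral against Ventral had 1 call (Rrm2 at limma adjusted p = 0.0692), Tyms was not called in Oral against Dorsal (limma adjusted p = 0.079), and EPF against Dorsal had 25 calls, without Cdkn1b, Cdkn1c, Mcm2, Kif20a and Kif23 among others. Of all genes, 12.9%, 15.2% and 12.9% were then called in these comparisons. The Cdkn1b difference changed sign to -0.0071 between EPF and ENF with the mean of all probe sets, and between Ventral and Dorsal it ran from -0.3911 to 0.0306 when 1 array was left out. Over all genes, median centring changed the split of higher and lower calls from 2037 and 1356 to 1421 and 5317 for Cranial and Dorsal, from 2123 and 1128 to 1690 and 4534 for Cranial and Ventral, from 1918 and 1147 to 1338 and 4045 for Oral and Dorsal, from 1881 and 784 to 1367 and 2822 for Oral and Ventral, and from 1974 and 1081 to 1589 and 1595 for EPF and Dorsal. The cause was not tested. Genes near background have only bounds.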
